A study of Homo sapiens with 2 samples.

Results

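The genes described were PRL and peptide hormones that small cell lung cancers are known to make outside their normal endocrine sites: POMC, GRP, CALCA, CALCB, AVP, GAST, NMB, NTS and PTHLH. They were chosen by symbol, through the RefSeq accession of each probe that is not a control. PRL was added to the group because its signal was lower on both its spots in these same data, so its values are a description and carry no support. Of the 10 genes, 9 had a named probe, among 19061 genes named on the array, and CALCB was without a matched probe. The 9 genes had 11 probes and 29 spots.

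Gene expression was compared between SBC-3 cells transfected with #1 siHOTAIR, an siRNA against the long noncoding RNA HOTAIR, and SBC-3 cells given the control siRNA siGFP, which targets green fluorescent protein. SBC-3 is an established SCLC cell line that grows attached to the dish, and all cells were of this 1 line. Each RNA was read on 1 one-colour Agilent array, so neither condition had a replicate and no P-value was computed. Effects of the siRNA, the culture and the array cannot be told apart. Only #1 siHOTAIR was arrayed, so loss of HOTAIR and other effects of that siRNA cannot be told apart either. The authors report that their other siRNAs against HOTAIR also lowered it, but without reducing proliferation or invasion. The question was which transcripts differ between cells given #1 siHOTAIR and cells given siGFP.

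Peptide hormones are made as larger precursors that enter the secretory pathway, are stored in dense-core granules, and are cut at pairs of basic residues by prohormone convertases before their ends are trimmed and often amidated. SCLC is a neuroendocrine carcinoma, and its cells can secrete such peptides without the control found in the normal gland. Corticotropin from POMC and vasopressin from AVP cause the best known hormone syndromes of the disease, and gastrin-releasing peptide from GRP acts back on the tumor cells as a growth factor.

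The strands of the siRNA used are shown because they define the treated array. They are given 5′ to 3′, with bases 2 to 8 of the antisense strand, its seed, in capitals, and the strands share 19 paired bases.
#1 siHOTAIR antisense: uCUCUCUGuacucccguucuu
#1 siHOTAIR sense: gaacgggaguacagagagauu

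The promoters of 3 of the genes are shown. They are those of the 2 genes at least 2-fold lower in #1 siHOTAIR cells, PRL and PTHLH, and that of NTS, which differed by less than 2-fold. Each is the RefSeq window of GRCh38.p14 from 250 bases before to 50 bases after the gene's start, read on the gene's strand. Capitals mark matches on either strand to any of 6 motifs. The motif of the pituitary factor Pit-1, encoded by POU1F1, was searched as TATNCAT. The box bound by the TATA-binding protein was searched as TATAAA. The core of a cAMP response element, or CRE core, was searched as TGACG. A loose form of the AP-1 motif was searched as TGANTCA, with any middle base where the usual motif has C or G. The GC box was searched as GGGCGG, and the left part of the site of the repressor REST as TTCAGCACC.
PRL (chr6:22296987-22297286, minus strand): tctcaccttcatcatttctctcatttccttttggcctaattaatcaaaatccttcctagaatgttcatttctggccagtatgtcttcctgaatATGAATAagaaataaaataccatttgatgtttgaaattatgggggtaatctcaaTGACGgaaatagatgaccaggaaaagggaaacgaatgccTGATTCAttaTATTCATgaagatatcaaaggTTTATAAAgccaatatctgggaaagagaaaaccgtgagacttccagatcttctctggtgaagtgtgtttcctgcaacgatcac
PTHLH (chr12:27969927-27970226, minus strand): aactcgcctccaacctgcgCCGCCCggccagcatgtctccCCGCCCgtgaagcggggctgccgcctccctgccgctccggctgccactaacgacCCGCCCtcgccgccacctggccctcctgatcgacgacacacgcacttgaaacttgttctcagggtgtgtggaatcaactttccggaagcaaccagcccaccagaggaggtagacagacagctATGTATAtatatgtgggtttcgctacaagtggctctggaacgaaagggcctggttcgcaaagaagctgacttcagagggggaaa
NTS (chr12:85874045-85874344, plus strand): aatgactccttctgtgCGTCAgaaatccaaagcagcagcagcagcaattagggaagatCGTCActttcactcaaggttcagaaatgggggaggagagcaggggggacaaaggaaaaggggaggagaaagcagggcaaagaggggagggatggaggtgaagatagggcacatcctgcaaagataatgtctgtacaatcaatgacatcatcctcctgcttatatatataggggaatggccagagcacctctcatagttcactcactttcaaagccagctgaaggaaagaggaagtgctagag
The PRL window held 2 Pit-1 matches, which began 157 and 54 bases before the start, with 2 TATA matches that overlap each other. It also held 1 CRE core and 1 loose AP-1 match, TGATTCA, with T in the middle. The PTHLH window held 1 Pit-1 match at 34 bases before the start and 3 GC boxes. The NTS window held 2 CRE cores. A Pit-1 match was found in 7.10% of all 35116 windows, a TATA match in 11.5% and a CRE core in 24.6%. A loose AP-1 match was found in 7.71%, a GC box in 45.0% and the REST part site in 0.376%. Of the 9 windows of the hormone genes, 2 held a Pit-1 match (PRL and PTHLH) and 2 a loose AP-1 match (PRL and AVP). A TATA match was held by 3, a CRE core by 5, a GC box by 5 and the REST part site by 0. With 6 motifs searched and PRL chosen by its values, a link between any motif and the ratios was not tested. GC content was 36.3% in the PRL window, 60.3% in the PTHLH window and 48.3% in the NTS window, against a median of 58.7% over all windows. These matches describe letters in the window and say nothing of binding or of the start used in SBC-3 cells, which was not measured.

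The targeted RNA was checked first. HOTAIR had 1 spot, with a processed signal of 108 in #1 siHOTAIR cells and 244 in siGFP cells, a log2 ratio of −1.22 with a measurement SD of 0.22. Over 10 alternative settings the ratio ranged from −1.25 to −0.73, the latter without background correction. HOTAIR was at least 2-fold lower in 8 of them. The signal of a spot is the processed signal of the scanner software, its fluorescence after subtraction of the background. For spots that the software does not call positive and significant, this value lies near its own error and is not read as a measured level. Every ratio below is #1 siHOTAIR over siGFP after each array was set against its own 75th percentile, 650.3 and 629.9. The measurement SD is that of a probe's mean ratio and gets smaller with the number of spots averaged. It comes from repeated spots on the same array and does not cover differences between cultures. The reference genes ACTB and GAPDH had log2 ratios between −0.05 and 0.00. Across 24117 probes that could be compared, the median log2 ratio was 0.01. For #1 siHOTAIR and siGFP cells, 55.5% and 58.3% of the spots were well above background by the scanner software, which marked 393 and 375 spots as outliers and 0 spots as saturated on either.

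The label of the cells was set against 12 neuroendocrine markers of small cell cancer. Of these, 6 were compared, while INSM1, SYP, UCHL1, DDC and SCG2 were well above background on neither array. ENO2 and DLL3, at signals between 570 and 770, and NEUROD1, at 213 and 372, were well above background on both. CHGA was well above background in #1 siHOTAIR cells alone, at least 2.44-fold higher on background-subtracted signals but with a log2 ratio of 0.54 without background correction, and CHGB and NCAM1 were so on 1 of 2 spots of that array and give no fold. Of 7 genes more often found in non-neuroendocrine small cell cancer, VIM, MYC, YAP1, REST and HES1 were well above background on both arrays, with log2 ratios from −0.10 to 0.11, and CD44 and POU2F3 were so on neither.

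Of the 11 probes of the hormone genes, 6 reached the limit for comparison, a call of well above background for at least 50% of the spots on either array, 1 each for PRL, PTHLH, AVP, GAST, NMB and NTS. The other 5, which measure CALCA, GRP and POMC, were well above background on neither array. Of the 6 compared, 2 were at least 2-fold lower in #1 siHOTAIR cells and 0 were at least 2-fold higher. Over all compared probes, 4.1% were at least 2-fold lower and 3.3% at least 2-fold higher. PRL was chosen from this contrast, so nothing is read from its count. The remaining 4 hormone probes lay within 2-fold, and the median log2 ratio of the 6 was −0.12.

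**Figure D1:**
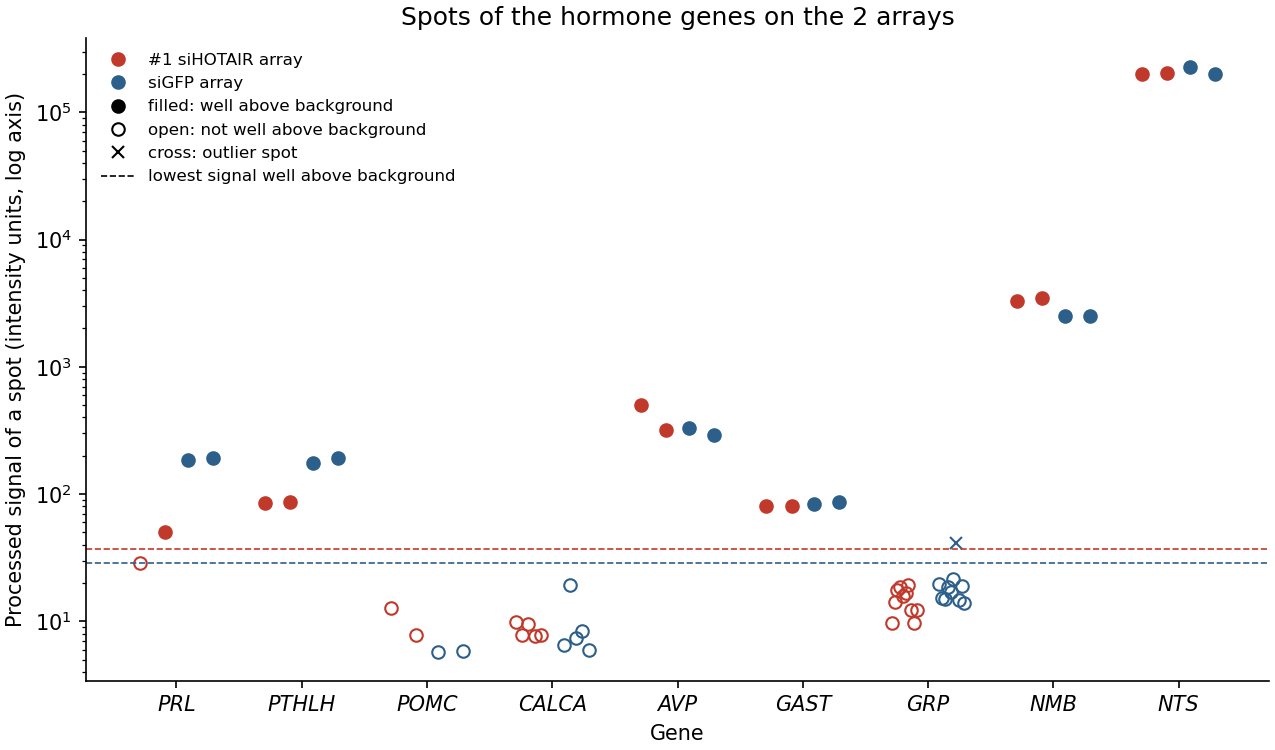
Processed signal of each spot of the hormone genes (intensity units, log axis) in both conditions, with filled points well above background and open points not, a cross for an outlier spot, and dashed lines at the lowest signal well above background, 37.3 for #1 siHOTAIR and 28.6 for siGFP. PRL and PTHLH are the 2 genes whose spots in #1 siHOTAIR cells lie at least 2-fold below those in siGFP cells. Signals of different genes come from different probes and are not comparable in level.

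PRL encodes prolactin, the milk hormone of the pituitary lactotrophs, whose transcription there depends on Pit-1. Its probe had signals of 28.9 and 50.6 on its 2 spots in #1 siHOTAIR cells and of 184 and 193 in siGFP cells. Both spots were dimmer in #1 siHOTAIR cells and the ranges did not overlap. In #1 siHOTAIR cells only the brighter spot was well above background, whereas both were in siGFP cells.

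The log2 ratio of PRL was −2.72 on the first spot and −1.97 on the second. The error that the scanner software gives to these ratios was 0.49 and 0.30. Their mean was −2.35 ± 0.53 (SD of 2 spots of the same arrays), a signal 5.09-fold lower. With the dim spot raised to the lowest signal called well above background on its array, the mean was −2.16, or 4.48-fold lower. Other treatment of the background brought it closer to 2-fold, at −1.18 with normexp correction and −1.09 without correction. In these bulk RNAs, fewer cells that make prolactin and less RNA per cell cannot be told apart. The measurement SD from repeated spots of other probes was 0.15 for a mean of 2 spots. The PRL level in #1 siHOTAIR cells, however, lay below the levels from which that SD was taken.

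The first PRL spot lay in row 87 and the second in row 219 of the array. In rows 1 to 192, among spots called well above background in either condition, 4.48% were at least 2-fold lower and 4.0% at least 2-fold higher, against 3.46% and 1.94% in rows 193 to 384. The part of position in the PRL signal was not tested. Among compared probes with a mean level within 0.5 of PRL on the log2 scale, 3.57% were at least 2-fold lower.

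PTHLH encodes parathyroid hormone-related protein, which raises blood calcium when tumors secrete it. Its signals were 85.1 and 86.5 in #1 siHOTAIR cells and 175 and 194 in siGFP cells. All spots were well above background, and the spots of the arrays did not overlap. The log2 ratios were −1.09 and −1.21, with a mean of −1.15 and a measurement SD of 0.15, a signal 2.22-fold lower. Among compared probes within 0.5 of its mean level on the log2 scale, 3.11% were at least 2-fold lower. PTHLH stayed lower but came within 2-fold when the background was treated otherwise, at −0.66 with normexp correction and −0.58 without correction.

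**Figure D2:**
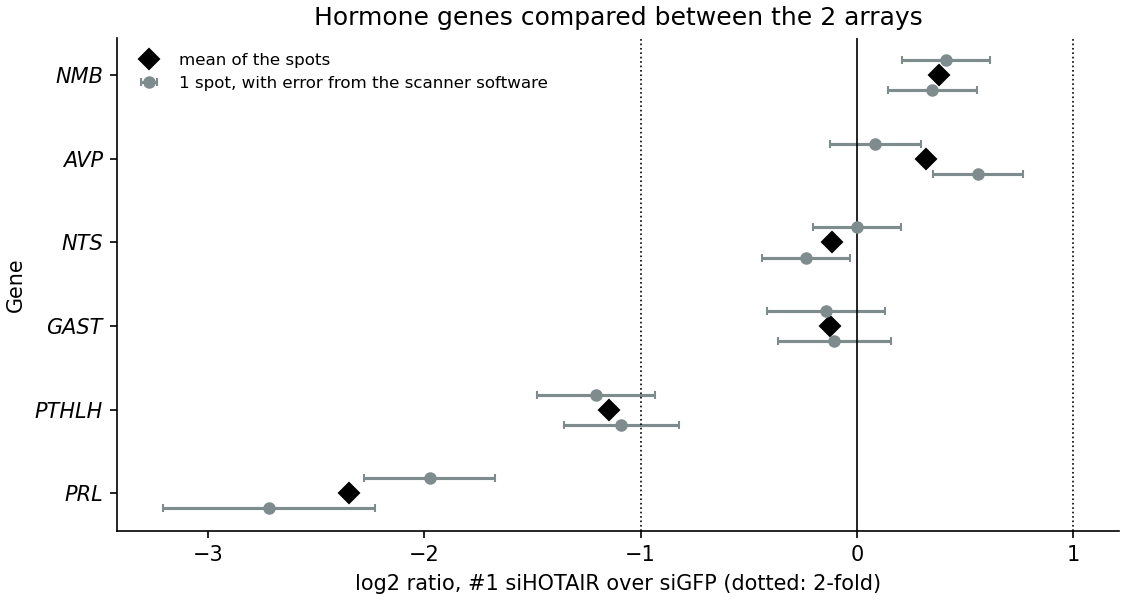
log2 ratio of #1 siHOTAIR over siGFP for the 6 hormone genes compared, with grey points for the single spots, bars for the error given by the scanner software, black diamonds for the mean of the spots and dotted lines at 2-fold. Both spots of PRL (−2.72 and −1.97) and of PTHLH (−1.09 and −1.21) lie beyond the 2-fold line, and the bars of PTHLH cross it.

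AVP encodes the precursor of vasopressin, which makes the kidney retain water. Its signals were 501 and 320 in #1 siHOTAIR cells and 330 and 292 in siGFP cells. The mean log2 ratio was 0.32, with a measurement SD of 0.09 for that mean. The log2 ratios of the spots were 0.56 and 0.08, an SD of 0.34 between spots, and the spots of the arrays overlapped. The brighter spot lay in row 30, among the upper rows, and the part of position in this difference was not tested.

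GAST encodes gastrin, the hormone of the stomach that drives acid secretion. Its signals were 80.9 and 81.0 in #1 siHOTAIR cells and 84.2 and 86.7 in siGFP cells. The mean log2 ratio of −0.12 was smaller than the measurement SD of 0.20.

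NMB encodes neuromedin B, a bombesin-like peptide of the same family as gastrin-releasing peptide. Its signals were 3298 and 3455 in #1 siHOTAIR cells and 2508 and 2513 in siGFP cells. The spots did not overlap, and the log2 ratios were 0.35 and 0.41. The mean of 0.38 exceeded the measurement SD of 0.06 but was within 2-fold. Both NMB spots lay in rows 1 to 192, and the part of position was not tested.

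NTS encodes the precursor of neurotensin, a peptide of the gut and brain that also acts on tumor cells through its receptors. Its signals were 199119 and 204685 in #1 siHOTAIR cells and 227050 and 198170 in siGFP cells, with 0 spots saturated. The arrays overlapped. The log2 ratios were −0.24 and 0.00, with a mean of −0.12 and a measurement SD of 0.05. When the arrays were scaled to the spike-in RNA, the mean turned to 0.02, and that of GAST to 0.01. That scaling moved the median log2 ratio of all compared probes to 0.15.

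**Figure D3:**
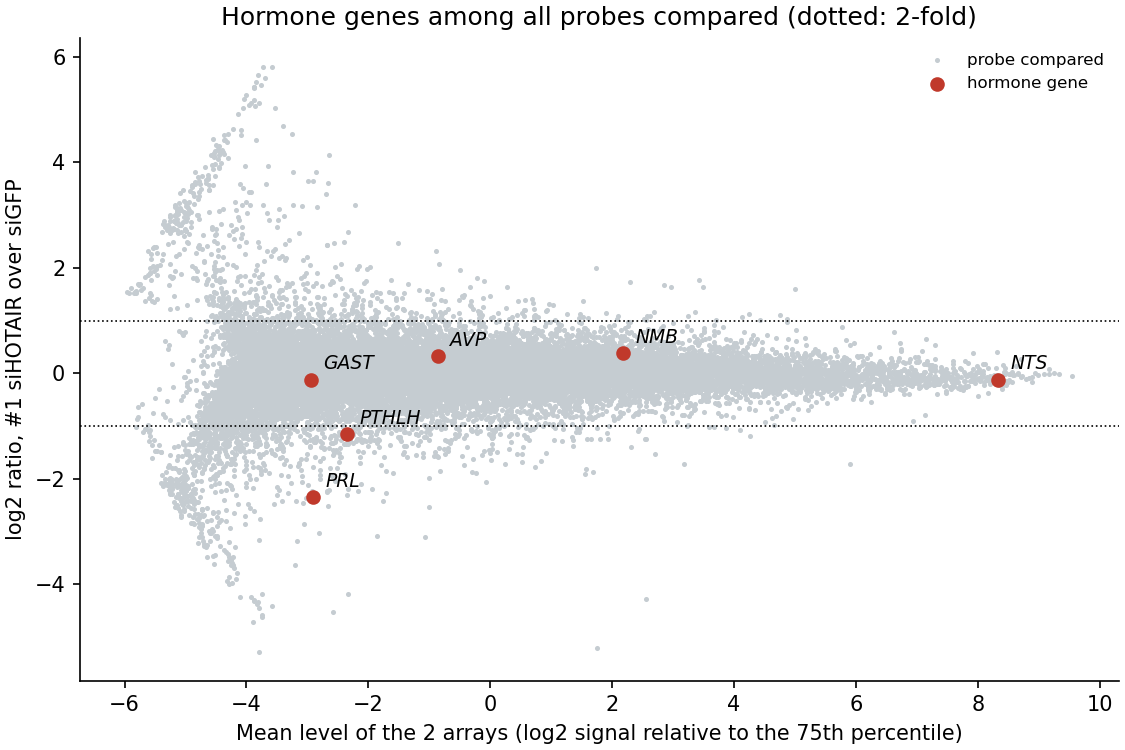
log2 ratio of #1 siHOTAIR over siGFP against the mean level of the arrays (log2 signal relative to the 75th percentile of each array) for all 24117 compared probes in grey and the 6 hormone probes in red, with dotted lines at 2-fold. PRL (−2.35) and PTHLH (−1.15) lie below the lower line at low mean levels, and AVP, GAST, NMB and NTS lie between the lines.

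The remaining hormone genes gave no fold. GRP had 10 spots, with signals from 9.68 to 19.4 and a median of 15.0 in #1 siHOTAIR cells, and from 13.8 to 41.4 and a median of 17.7 in siGFP cells. The spot at 41.4 was marked as an outlier and was the only GRP spot called well above background. POMC, the precursor of corticotropin and melanocyte-stimulating hormone, had signals of 12.6 and 7.73 in #1 siHOTAIR cells and of 5.78 and 5.86 in siGFP cells. In siGFP cells the errors from the scanner software were 5.79 and 5.88, about as large as the POMC signals. CALCA, which encodes calcitonin and a calcitonin gene-related peptide by alternative splicing, had 5 spots on 3 probes. They ranged from 7.63 to 9.85 in #1 siHOTAIR cells and from 5.95 to 19.2 in siGFP cells. These signals were not well above background, and no difference was read from them.

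Receptors of the hormones were examined next, since secreted peptides can act on the cells that make them. Of 28 genes, 8 were compared, on 10 probes, and 0 of these probes were at least 2-fold higher or lower. Their median log2 ratio was 0.24, or 0.09 with dim signals at their bound, against 0.01 over all compared probes. PRLR, the prolactin receptor, was well above background on neither array. GRPR, NMBR, NTSR1, NTSR2, CCKBR and the vasopressin receptors AVPR1A, AVPR1B and AVPR2 were also well above background on neither.

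CALCR, the calcitonin receptor, had signals of 255 and 266 in #1 siHOTAIR cells and of 484 and 460 in siGFP cells. Its log2 ratio was −0.90, with a measurement SD of 0.09 and no overlap between the arrays. A second CALCR probe was at least 1.56-fold lower on background-subtracted signals, with a log2 ratio of −0.30 without background correction. PTH1R, the receptor of PTHLH, was well above background in siGFP cells alone, with signals of 34.0 and 46.8 in #1 siHOTAIR cells and of 45.7 and 50.2 in siGFP cells, so the arrays overlapped. MC1R, a receptor of melanocyte-stimulating hormone, had signals of 814 and 846 in #1 siHOTAIR cells and of 498 and 551 in siGFP cells, a log2 ratio of 0.62. RAMP1, which joins the calcitonin family receptors to form those of calcitonin gene-related peptide and amylin, had log2 ratios of 0.20 and 0.29 on its 2 probes, and RAMP2 one of 0.44. SORT1, a sorting receptor that binds neurotensin, had a log2 ratio of −0.19. OXTR, a receptor of oxytocin that also binds vasopressin, had a log2 ratio of 0.31. MC5R was well above background on 1 of 2 spots of 1 array and gave no fold.

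Of the 15 genes that process prohormones, 11 were compared, on 13 probes, and 0 probes reached 2-fold in either direction. Their median log2 ratio was 0.10. PCSK2, the carboxypeptidase CPE, the PCSK2 chaperone SCG5 and PCSK5 were well above background on neither array. PCSK1, a prohormone convertase, had signals of 126 and 158 in #1 siHOTAIR cells and of 200 and 196 in siGFP cells, a log2 ratio of −0.53. PCSK1N, its inhibitor, had a log2 ratio of 0.33. PAM, the enzyme that amidates peptide ends, had log2 ratios of 0.76 and 0.41 on its 2 probes. TPST2, a sulfotransferase of tyrosines, had a log2 ratio of 0.96 on 1 spot, and TPST1 one of 0.10. FURIN, the convertase of the trans-Golgi network, was at least 1.58-fold lower on background-subtracted signals, with a log2 ratio of −0.28 without background correction. CTSL had a log2 ratio of 0.02, and CPD one of 0.52. PCSK6 had a log2 ratio of −0.34 and QPCT, which forms pyroglutamate ends, one of −0.22. The 2 probes of PCSK7 had log2 ratios of 0.07 and 0.10.

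**Figure D4:**
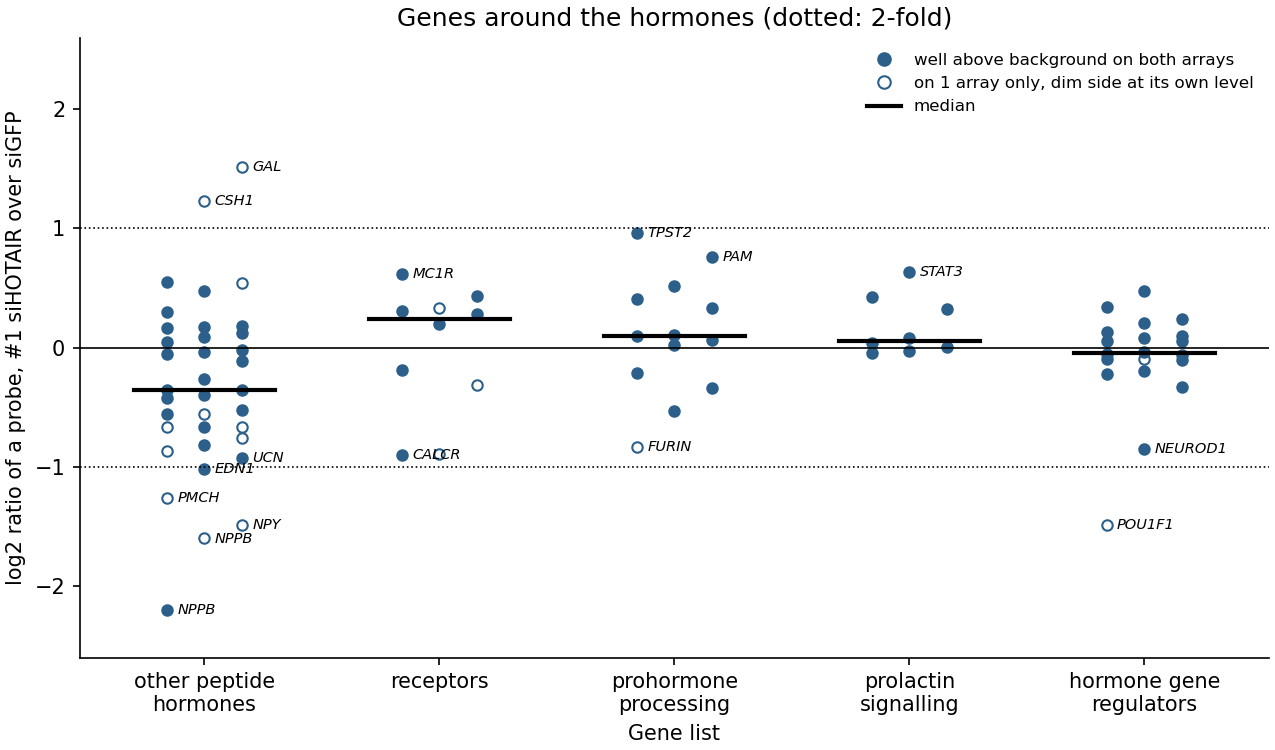
log2 ratio of #1 siHOTAIR over siGFP for each compared probe of 5 gene lists, with filled points well above background on both arrays, open points on 1 array only, black lines at the median of a list and dotted lines at 2-fold. The probes of receptors, prohormone processing and prolactin signalling all lie within 2-fold, and NPPB (−2.20) is the lowest of the other peptide hormones.

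Among 61 other peptide hormone and growth factor genes, 33 were compared, on 36 probes, of which 5 were at least 2-fold lower and 2 at least 2-fold higher in #1 siHOTAIR cells with dim signals at their own level, where 4.1% and 3.3% of all compared probes were. With dim signals at their bound, 3 were at least 2-fold lower and 0 at least 2-fold higher, against 2.06% and 2.33% of all compared probes. These 3 were both probes of NPPB and a probe of EDN1, and they are also among the 5. The median log2 ratio of the 36 probes was −0.35, or −0.21 with dim signals at their bound. Of the 36 probes, 24 had ratios below 0 and 12 above, against 11650 below and 12467 above among all compared probes. The median of the compared hormone genes described first, PRL among them, was −0.12 and lay nearer to 0.

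NPPB, the natriuretic peptide of the heart ventricle, had signals of 82.8 and 75.3 in #1 siHOTAIR cells and of 353 and 351 in siGFP cells, a log2 ratio of −2.20 with a measurement SD of 0.14. Its second probe was at least 2.78-fold lower on background-subtracted signals, with a log2 ratio of −0.64 without background correction. EDN1, the vasoconstrictor endothelin, had a log2 ratio of −1.02 over 10 spots, which ranged from −1.16 to −0.87, and of −0.82 on a second probe. The first EDN1 probe was at least 2-fold lower in 5 of 10 alternative settings and ranged from −1.04 to −0.82 over them. NPY, an appetite peptide of neurons, was at least 1.55-fold lower on background-subtracted signals, with a log2 ratio of −0.36 without background correction. PMCH was well above background on 1 of 2 spots in siGFP cells, and GAL and CSH1 on 1 of 2 spots in #1 siHOTAIR cells, so these 3 genes gave no fold at the bound. The genes with the highest mean signals in the list were IGF2, with log2 ratios of 0.09 and 0.18, TAC3, with −0.56, and EDN3, with 0.12.

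Some relatives of the hormones were also measured. OXT, the oxytocin gene beside AVP in the genome, had signals of 165 and 218 in #1 siHOTAIR cells and of 115 and 138 in siGFP cells, a log2 ratio of 0.55. PTH2 had a log2 ratio of −0.05, and PTH itself was well above background on neither array. IAPP and ADM, of the calcitonin family, had log2 ratios of −0.52 and −0.36. NMU, a neuromedin of another family than NMB, had a log2 ratio of −0.35. CCK, the relative of gastrin, and GH2 were well above background on neither array, and GH1, a relative of prolactin, was so on 1 of 2 spots in siGFP cells and gave no fold.

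Markers of other cells that could bring hormone transcripts were read on the same arrays. Of 8 pituitary markers, 6 were compared. POU1F1, the gene of Pit-1, was well above background on 1 of 2 siGFP spots, with log2 ratios of −3.31 and 0.35 on its spots, and gave no fold at the bound. GH1 was also called on 1 of 2 spots of the siGFP array only, CGA and FSHB were well above background on neither, and LHB, TSHB and TBX19 had log2 ratios from −0.02 to 0.20. Of 6 fibroblast markers, COL1A1 (log2 ratio 0.96) and COL1A2 (−0.04) were compared and COL3A1, DCN, LUM and PDGFRB were well above background on neither array. Of 6 blood cell markers, PTPRC and CD68 were compared, with log2 ratios of 0.75 and 0.63 on probes well above background on both arrays. A second PTPRC probe, called on 1 of 2 spots in siGFP cells alone, had a log2 ratio of −0.83 and gave no fold at the bound, and CD3E and HBB were so on neither.

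The lower PRL signal was followed through each way of processing the arrays. It kept its direction and stayed at least 2-fold lower under the 12 alternative settings that give it a value. With 2 spots and no outlier, keeping outlier spots or taking the median over spots could not change it. Each spot alone reuses the values by which PRL was chosen. A filter that asks for every spot to be well above background on both arrays leaves PRL out. Its log2 ratio ranged from −2.72, on its first spot alone, to −1.09, on signals without background correction. PTHLH had a ratio below 0 under all 10 settings run for it and was at least 2-fold lower in 8.

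**Figure D5:**
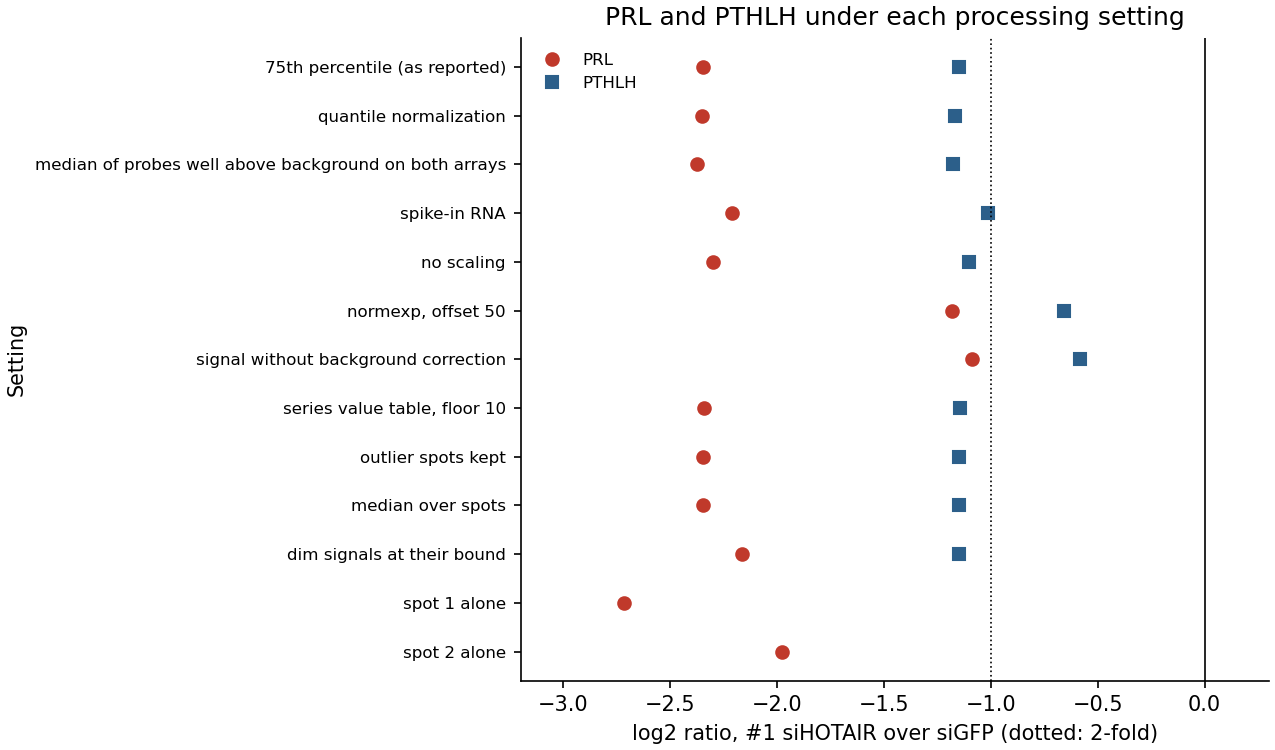
log2 ratio of #1 siHOTAIR over siGFP for PRL (circles) and PTHLH (squares) under each processing setting, with a dotted line at 2-fold lower. All values of PRL lie below −1, and PTHLH lies above −1 with normexp correction (−0.66) and without background correction (−0.58).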

How the data were processed

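The authors labelled RNA of SBC-3 cells transfected with #1 siHOTAIR or siGFP with Cy3, hybridized it to 1 SurePrint G3 8x60K array per condition and read it with Feature Extraction 10.10.1.1, per the submitters' processing notes. The deposited processed signal, used here for levels, is an intensity after background subtraction by that software, not normalized between arrays. In hormone gene spots not called positive and significant, it lay near its own error. The deposited value table equals the background-subtracted signal (largest difference 0).

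Accessions were matched, without versions, to RefSeq of GRCh38.p14, used for names and promoter windows, which named 58.5% of the probes. log2 signals were set against the array's 75th percentile over 58717 non-control spots, outlier spots were left out, and repeated spots were averaged. Comparison required a call of well above background for at least 50% of a probe's spots in either condition. Dim sides took, as a bound, the lowest signal well above background on that array or their own level if higher. No test was run, and the number of arrays limits the precision. The counting was tested on simulated data, with large changes placed in probes well above background on both arrays. Those probes had higher mean levels than PRL, PTHLH and GAST, so the test does not cover dim probes.

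The hormone genes and gene lists were chosen with earlier results of these data known. Named were every hormone gene, list genes past 2-fold, the 3 with the highest mean signal in a list, compared receptors and processing enzymes, HOTAIR, and the 5 probes nearest to PRL in level. Other genes were named after their values were seen, and a few listed genes are not reported here. Alternatives were other scalings, background corrections (normexp in limma 3.58.1, on the median spot signal in place of the mean), filters and thresholds.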

Additional observations from a re-analysis of the deposited data

How the results depend on the processing

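With 1 array per condition, no left-out replicate or batch could be examined. No paired analysis was possible because each condition has 1 array. PRL stayed at least 2-fold lower under the 12 alternatives that give it a value. PRL had no outlier spot, so keeping outliers could not change it, nor could the median of its 2 spots. PRL was chosen by its single spots, so these are a description. Its log2 ratio was −1.18 with normexp correction, −1.09 without background correction, −2.16 with its dim spot at the bound, −2.72 on its first spot alone and −1.97 on its second. The count of hormone probes at least 2-fold apart, 2 as reported, was 1 with normexp correction, 1 without background correction, 1 when every spot had to be well above background on both arrays, which leaves out PRL, and 1 at 3-fold. It was 2 under all other alternatives. The number of hormone probes compared was 10 when a positive and significant signal replaced well above background, and 6 under both other alternatives run for that number. The added probes measure GRP, POMC and CALCA. For the other hormone genes compared, 44 of 50 values under alternatives moved by less than the measurement SD. Among these, keeping outlier spots, the median over spots and the bound could not move any value. Each of those probes had 2 spots, none an outlier and all well above background. Scaling to spike-in RNA turned GAST (0.01) and NTS (0.02) to above 0. At the bound, 11 probes of listed and marker genes gave no fold. Signal over background limits PRL in #1 siHOTAIR cells, and CALCA, GRP and POMC, for which no ratio is given under the limit of well above background.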

Other observations

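Genes of prolactin signalling and regulators of hormone genes were also read. Of 9 prolactin signalling genes, 7 were compared, on 8 probes, with 0 at least 2-fold higher or lower and a median log2 ratio of 0.06. SOCS2, an inhibitor of cytokine receptors that STAT5 induces, had signals near 16690 in #1 siHOTAIR cells and 15287 in siGFP cells, a log2 ratio of 0.08. STAT5B had a log2 ratio of 0.00 and CISH, another such inhibitor, one of 0.33. PRLR and STAT5A were well above background on neither array. The 2 probes of STAT3 had log2 ratios of 0.64 and −0.02, so they disagreed.

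Of 23 regulators of hormone genes, 16 were compared, on 20 probes, with a median log2 ratio of −0.05, or 0.05 with dim signals at their bound. With dim signals at their bound, 0 probes were at least 2-fold higher or lower. At its own level POU1F1 had a log2 ratio of −1.48, but it was well above background on 1 of 2 siGFP spots alone and gave no fold at the bound. The regulators with the highest mean signals were USF2, with log2 ratios of −0.04 and 0.08, PITX1, a pituitary homeodomain factor, with 0.06 and 0.10, and PREB, which binds the prolactin promoter, with 0.13. NEUROD1, a factor of neuroendocrine cells that also acts on POMC, had signals of 208 and 217 in #1 siHOTAIR cells and of 371 and 372 in siGFP cells, a log2 ratio of −0.85. REST, the repressor of neuronal genes, had a log2 ratio of −0.10.

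Among the 5 named probes whose pair of levels lay nearest to that of PRL, by Euclidean distance over the 2 arrays on the log2 scale, were those of FGFBP3 (distance 0.08), SSC5D (0.19), ADPRHL1 (0.24) and CLIP4 (0.29). Each of these had 1 spot, and their log2 ratios were −2.24, −2.11, −2.46 and −2.0. In #1 siHOTAIR cells, of these spots that of CLIP4 alone was well above background. This likeness rests on 2 arrays and is a description.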
